A study of Mus musculus with 5 samples.

Results

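The nuclear genes for respiratory complexes II to V were followed in whole kidneys of mice with polycystic kidney disease and of their controls. The members were the rows of the deposited gene table whose symbol begins with Sdha to Sdhd, Uqcr, Cox4 to Cox8 or Atp5, together with Cyc1 and Cycs, which gave 51 of 23997 rows. Whole-kidney RNA of mice aged 8 weeks had been sequenced in 5 libraries. The 3 control libraries (control 0, 1 and 2) carry the genotype label of an uninduced control, and the other 2 (knockout 0 and 1) that of a Pkd1 knockout. The sample titles call the latter SKO, and the series' design text speaks of PkdTKO mice. The labels give no strain, sex, inducing agent or driver of the deletion, and they do not say whether a library came from 1 animal. The spread that each p-value rests on is therefore that between libraries, and it may be purely technical. Pkd1 encodes polycystin-1, a membrane protein of tubule cells, and the series was directed at metalloproteinases and cyst expansion. Values of single libraries are given throughout in the order of these numbers, those of the controls first.

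The respiratory chain lies in the inner mitochondrial membrane. Complex II, succinate dehydrogenase, takes electrons from succinate and passes them to ubiquinone. Complex III moves them on to cytochrome c, complex IV hands them to oxygen, and complex V, the ATP synthase, uses the proton gradient that the chain builds to make ATP. All subunits of complex II are encoded in the nucleus, whereas a few subunits of complexes III, IV and V come from mitochondrial DNA. Proximal tubules and thick ascending limbs are among the cells of the body richest in mitochondria, because they fuel sodium transport by respiration.

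Promoter letters are shown first, as a description of the members. Of the 51 members 37 matched RefSeq promoter windows by symbol, 40 windows in all, each running from 250 bases before a transcription start to 50 after it (GRCm38.p6, the mm10 sequence). The 5 stretches below are the 250 bases before the start. They belong to Sdhb and Cycs, which hold the nuclear respiratory factor 1 (NRF1) core, to Uqcr11, 1 of the genes that fell, to Uqcr10, which also fell and holds neither core in its window, and to Cox6b2, the member with the largest positive difference. Capitals mark a whole match to the NRF1 core GCATGCGC or to the ETS core CCGGAAG, searched on both strands.
Sdhb: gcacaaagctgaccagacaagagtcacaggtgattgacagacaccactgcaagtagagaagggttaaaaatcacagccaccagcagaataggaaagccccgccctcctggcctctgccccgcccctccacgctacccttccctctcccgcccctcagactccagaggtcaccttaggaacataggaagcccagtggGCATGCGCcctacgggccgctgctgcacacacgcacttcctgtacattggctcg
Cycs: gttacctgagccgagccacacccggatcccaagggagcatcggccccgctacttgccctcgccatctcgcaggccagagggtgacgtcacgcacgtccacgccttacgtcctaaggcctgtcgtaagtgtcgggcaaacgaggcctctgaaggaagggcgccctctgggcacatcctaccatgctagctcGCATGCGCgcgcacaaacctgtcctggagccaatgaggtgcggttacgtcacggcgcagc
Uqcr11: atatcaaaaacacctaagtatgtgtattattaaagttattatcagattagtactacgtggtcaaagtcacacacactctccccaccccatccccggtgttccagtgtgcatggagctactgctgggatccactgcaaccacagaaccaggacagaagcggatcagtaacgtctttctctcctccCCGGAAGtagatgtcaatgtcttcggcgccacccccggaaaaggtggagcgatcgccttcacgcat
Uqcr10: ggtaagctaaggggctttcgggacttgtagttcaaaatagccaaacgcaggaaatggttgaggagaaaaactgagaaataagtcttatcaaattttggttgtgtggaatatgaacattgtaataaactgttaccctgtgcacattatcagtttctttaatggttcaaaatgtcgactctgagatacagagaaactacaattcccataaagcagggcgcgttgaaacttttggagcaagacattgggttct
Cox6b2: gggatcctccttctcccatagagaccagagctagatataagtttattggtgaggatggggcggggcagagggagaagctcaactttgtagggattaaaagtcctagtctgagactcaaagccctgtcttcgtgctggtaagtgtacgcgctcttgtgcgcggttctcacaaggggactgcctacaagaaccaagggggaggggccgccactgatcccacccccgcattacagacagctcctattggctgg
They lie at chr4:140961021-140961270, plus strand for Sdhb, chr6:50566570-50566819, minus strand for Cycs, chr10:80406822-80407071, minus strand for Uqcr11, chr11:4704345-4704594, minus strand for Uqcr10 and chr7:4753095-4753344, minus strand for Cox6b2. The NRF1 match of Sdhb begins 54 bases before the start and that of Cycs 60. Sdhb also has an ETS match, which begins 6 bases after the start and so is not in the printed stretch. In Uqcr11 the ETS match begins 66 bases before the start, and an NRF1 match begins 4 bases before it and runs past the printed end.

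The NRF1 core stood in 8 of the 40 windows of members (20%), against 2.71% of all 32851 windows. They were those of Atp5g2, Atp5k, Atp5l, Cox6a1, Cycs, Sdhb, Uqcr11 and Uqcrc1. The ETS core, the kind of site that GABP binds, stood in 14 windows (35%, against 8.86% of all windows). Sdhb, Atp5k, Atp5l, Cox6a1 and Uqcr11 held both. Another 4 motifs were searched. The YY1 core AAGATGGC and the estrogen-related receptor site TCAAGGTCA each stood in 2 windows (5%, against 2.75% and 0.423% of all windows). The SP1 box GGGGCGGGG stood in 12.5% against 11.4%, and the letters CCAAT in 55% against 37.4%. A match is a description of the letters in the window. The shares are set beside all windows, not beside those of equally abundant genes. The part of these letters in the differences was not tested.

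The libraries differ in more than their label. Pkd1 itself had an FPKM (fragments mapped, scaled to transcript length and library size) of 3.22, 3.51 and 3.49 in the controls and 2.72 and 3.60 in the knockouts (log2 difference -0.09, limma adjusted p = 0.646), so its level checks neither label, and the deleted stretch is not named there. Knockout below means a library labelled as such. Xist was at 0.0275, 0.0222 and 0.0257 in the controls and 30.8 and 80.3 in the knockouts, and the Y-linked Ddx3y at 17.8, 18.6 and 17.99 against 7.30 and 0.00194, so that sex cannot be told apart from genotype in any difference below. Knockout 0 thus held both Xist and Ddx3y, whereas knockout 1 held almost no Ddx3y, so the knockouts are not alike in these genes. Whether knockout 0 mixes RNA of both sexes was not tested. The 7 macrophage markers found in the table summed to 275 to 313 over the controls but to 1366 and 367 in the knockouts. All 7 lay above every control, 0 passed, and the part of these cells in the results was not tested. The fibroblast and pericyte markers summed to 63.4 to 94.4 over the controls and to 177 and 96.4 in the knockouts, with 2 of 6 above every control. Of all tested rows 21.8% lay above every control. In whole tissue, fewer cells of a type and less RNA per cell cannot be told apart.

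Transcripts of complexes II to V were lower in both knockout libraries, in each of the 4 complexes. Of the 51 members 46 had a mean FPKM of at least 1 and no library at exactly 0 and were tested. Of these 43 had a negative difference (38 after the quantile normalization described further on). Both knockout libraries lay below every control in 40, against 26.4% of all 12553 tested rows. Their median difference in log2(FPKM + 1), knockout minus control, was -0.37, beside -0.02 over all tested rows. The median level over the members was 77.2% of the control mean. Single genes seldom passed. By limma, with Benjamini-Hochberg adjustment over the whole table, a total of 5 members fell (Sdhaf1, Uqcrq, Atp5sl, Uqcr11 and Uqcr10), where 3.82% of all rows were called lower. None rose, where 2.68% of all rows were called higher. At an unadjusted p under 0.05, 34 members were lower, against 16.8% of all rows, and 1 was higher. These shares of all rows also stand beside the counts of each complex and gene list below.

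**Figure D1:**
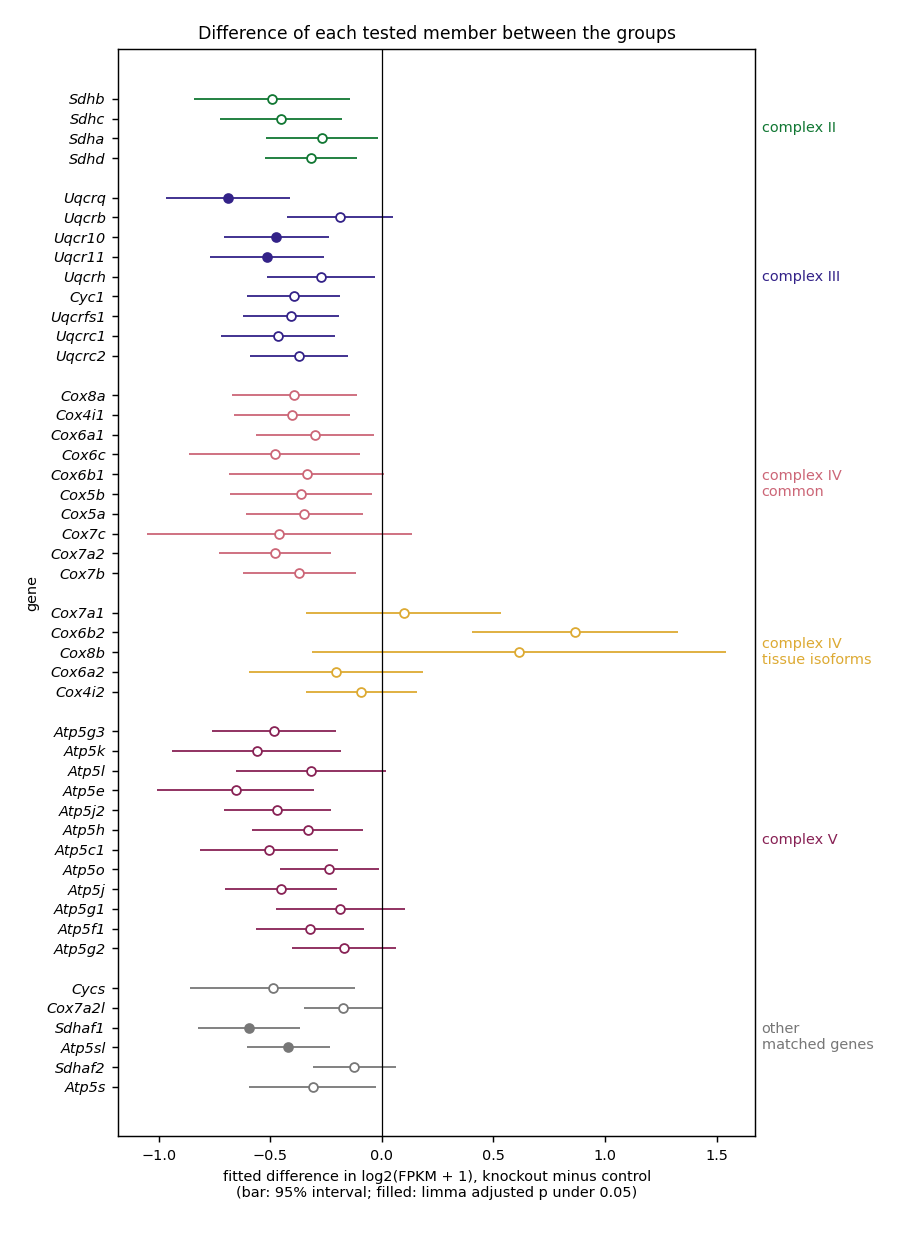
Fitted difference between the 2 knockout and the 3 control libraries for each of the 46 tested members, in log2(FPKM + 1), with its 95% interval; genes are grouped by complex, and filled points passed limma's adjusted p of 0.05. Points of complexes II, III and V and of the common subunits of complex IV all lie left of 0 in the values as deposited, whereas Cox6b2, Cox8b and Cox7a1 lie right of it.

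The number of calls changed with the libraries in the fit, over the whole table as well as among the members. Without control 0, 1 or 2 no member was called, where 0%, 0.629% and 0% of all rows were called lower. In these fits limma's smallest adjusted p among the members was 0.134, 0.0624 and 0.171. At an unadjusted p under 0.05 stood 28, 24 and 27 of the 46 members, in either direction. Of all 12553 rows 2393, 2903 and 2147 did. Without knockout 1, 24 members were called lower and 1, Cox6b2, higher, where 11.4% of all rows were called lower. Without knockout 0, 6 were called lower, where 7.19% of all rows were. Such a fit takes the spread of the lone knockout library to be that of the controls.

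Complex III held 3 of the 5 calls. This dimer of cytochrome b, cytochrome c1 and the Rieske iron-sulfur protein is wrapped in small and core subunits, and all 9 of its nuclear genes in the table were lower in both knockouts than in any control, although Uqcrb changed sign after quantile normalization. Uqcrq, a small subunit next to cytochrome b (ENSMUSG00000044894.14, mm10 chr11:53427922-53430831, minus strand), stood at 819, 947 and 843 FPKM in the controls and fell to 569.6 and 508 in the knockouts (log2 difference -0.69, SE 0.111, limma adjusted p = 0.0329). Its knockout values were 65.5% and 58.4% of the control mean, the largest fall among the tested members. Uqcr11, a small supernumerary subunit (ENSMUSG00000020163.12, mm10 chr10:80402997-80406830, minus strand), was at 757, 882 and 843 in the controls and fell to 572 and 582 (log2 difference -0.52, SE 0.103, limma adjusted p = 0.0475). Uqcr10, another small subunit (ENSMUSG00000059534.8, mm10 chr11:4701973-4704342, minus strand), fell from 811, 907 and 857 to 627 and 608 (log2 difference -0.47, SE 0.0941, limma adjusted p = 0.0475). In all 3 the 2 knockout libraries lay close together and well below the lowest control. The calls of Uqcr11 and Uqcr10 lay near the threshold: of 15 alternative settings they were called in 6 and 7, and Uqcrq in 9. Rescaled to a common sum per library, Uqcr11 and Uqcr10 had a limma adjusted p of 0.0727 and 0.07, and with no filter on mean FPKM Uqcrq, Uqcr11 and Uqcr10 had 0.0659, 0.0955 and 0.102.

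The catalytic and core subunits of complex III showed tight controls. Uqcrfs1, the Rieske protein that takes electrons from ubiquinol, was at 425, 434 and 432 in the controls and 308 and 341 in the knockouts (log2 difference -0.41, SE 0.0864, limma adjusted p = 0.0537). Cyc1, cytochrome c1, was at 439, 451 and 443 against 324 and 351 (log2 difference -0.40, SE 0.0838, limma adjusted p = 0.0534). Both just missed the threshold, and neither group overlapped the other. Uqcrc1, a core subunit, had 336 ± 3.13 (SD, n = 3) in the controls and 223 and 266 in the knockouts, and its partner Uqcrc2 308 ± 4.38 against 223 and 253 (adjusted p = 0.058 and 0.067 by limma). The smallest differences of the complex were those of Uqcrh, the hinge protein that helps cytochrome c1 meet cytochrome c, and Uqcrb, which binds ubiquinone near cytochrome b (log2 -0.27 and -0.19, adjusted p = 0.138 and 0.249). Uqcrb stood at 836, 887 and 878 in the controls and 724 and 799 in the knockouts, so knockout 1 was only a little under the lowest control.

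Complex II was lower in all of its subunits, and more so in knockout 0. Its 4 subunit genes all lay below every control in both knockouts, and 0 of 4 passed by limma, while all 4 had an unadjusted p under 0.05. Sdhb, the iron-sulfur subunit whose promoter is printed above, had 490.0, 492 and 480.1 in the controls and 298 and 402 in the knockouts (log2 difference -0.49, SE 0.141, limma adjusted p = 0.0939). Knockout 0 was thus at 61.1% and knockout 1 at 82.6% of the control mean. Sdha, the flavoprotein that oxidises succinate, had the smallest difference of the 4, from 343, 307 and 309.7 to 249 and 282 (log2 difference -0.27, SE 0.102, limma adjusted p = 0.153). The membrane anchor Sdhc stood at 451, 453 and 498 against 314 and 371 (log2 -0.45). The other anchor, Sdhd, stood at 259.6, 271 and 251 against 202 and 215 (log2 -0.32). In all 4 genes knockout 1 lay between knockout 0 and the controls.

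Among the assembly factors of complex II that the symbol rule takes in, Sdhaf1 fell and Sdhaf2 did not pass. Sdhaf1, which helps to insert iron-sulfur clusters into Sdhb (ENSMUSG00000074211.4, mm10 chr7:30321406-30323895, minus strand), fell from 50.4, 44.3 and 50.8 FPKM to 32.9 and 30.5 (log2 difference -0.60, SE 0.0917, limma adjusted p = 0.0296). It had the smallest adjusted p of all members and was called in 11 of the 15 alternative settings. Sdhaf2, needed to attach the flavin to Sdha, was at 15.1, 14.5 and 13.6 against 13.4 and 12.9 (log2 difference -0.12, SE 0.0742, limma adjusted p = 0.319). Its values are uncertain, because Cpsf7, at 21.6 in the controls, overlaps it on the opposite strand and the sources used here do not say whether reads were counted by strand. Another 7 members (Atp5a1, Atp5f1, Atp5j, Cox4i1, Cox6c, Uqcrb and Uqcrc2) are overlapped by opposite-strand genes of 2.20 to 14.5 FPKM.

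The common subunits of complex IV, the forms found in most tissues, were among the most abundant transcripts of the kidney. Their control means ran from 442 (Cox7b) to 1532 (Cox8a), and all 10 had a negative difference (Cox6a1 a positive one after quantile normalization), with 9 below every control in both knockouts and 8 at an unadjusted p under 0.05. By limma 0 of 10 passed over the table. Cox7a2, a small subunit near the dimer interface, came nearest, at 524, 604 and 559.9 in the controls and 388 and 418 in the knockouts (log2 difference -0.48, SE 0.101, limma adjusted p = 0.0526). Cox4i1, the subunit through which ATP slows the enzyme, had 1390.5, 1579.9 and 1472 against 1087 and 1150.1 (log2 difference -0.40, SE 0.104, limma adjusted p = 0.0766). Cox8a had 1465, 1634 and 1495 against 1089 and 1245 (log2 difference -0.39, SE 0.113, limma adjusted p = 0.0931). In these 3 genes both knockouts lay clearly under the lowest control.

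The other common subunits differed in how well the groups separated. Cox6c was at 1277, 1605 and 1467 in the controls and 923 and 1158 in the knockouts (log2 -0.48). Cox5a, which meets the catalytic core on the matrix side, was at 703, 762 and 749 against 538 and 624 (log2 -0.35). Cox7b had 442 ± 36.3 (SD, n = 3) in the controls and 331 and 350.1 in the knockouts. Cox6a1, a regulatory subunit, had 1469.9 ± 81.5 against 1257 and 1131. In Cox5b and Cox6b1 knockout 1 lay lower than knockout 0, with 913 and 847 against 1137 ± 131, and 1033 and 837 against 1179 ± 109.6. Cox7c was the 1 common subunit whose groups overlapped, at 569, 676 and 834 in the controls and 402 and 616 in the knockouts, and its controls varied by 19.2% (SD over mean) where the median over the 10 was 7.67%. Many of these small genes have processed pseudogenes, and how shared reads were counted is not known here, so their levels carry that uncertainty.

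The tissue isoforms of complex IV differed in sign from the common forms in 3 of 5 genes. Of the 7 found, 5 were tested, those of Cox6b2, Cox8b and Cox7a1 had a positive difference, and 0 passed. The sign of Cox7a1 turned without control 0 (log2 -0.0214) and without knockout 1 (-0.12). Cox6b2, best known from testis, was at 8.98, 13.3 and 11.4 in the controls and 24.04 and 18.4 in the knockouts (log2 difference 0.86, SE 0.185, limma adjusted p = 0.0542, ENSMUSG00000051811.14, mm10 chr7:4751792-4753094, minus strand). It was the only tested member with both knockouts above every control, against 21.8% of all rows. Its common counterpart Cox6b1 was lower in the same libraries, so the share of Cox6b2 in the summed FPKM of the pair was 0.948% ± 0.187 (SD, n = 3) in the controls against 2.28% and 2.15% in the knockouts. Cox7a1, the form of heart, muscle and brown fat, was at 59.4, 77.7 and 74.7 in the controls and 64.5 and 87.3 in the knockouts, which overlap, while its share beside Cox7a2 was 11.1% ± 0.832 (SD, n = 3) against 14.3% and 17.3%. The exact two-sided permutation p was 0.1 for both shares (0.2 after Benjamini-Hochberg adjustment over 8 shares), the smallest that 3 against 2 libraries allow, so no share could pass.

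Cox8b, another form of muscle and brown fat, varied widely among the controls (9.48, 3.32 and 7.45) and had 11.1 and 9.22 in the knockouts (log2 difference 0.61, SE 0.374, limma adjusted p = 0.325). Fat genes were present in the controls too: Ucp1, the uncoupler of brown fat, had 3.81, 1.38 and 3.12 in the controls and 0.0275 and 1.40 in the knockouts, and Cidea 4.07, 1.28 and 2.87 against 0.0404 and 0.778. Among the controls control 0 was highest and control 1 lowest in all 3 genes, whereas knockout 0 had the most Cox8b and the least Ucp1 and Cidea. The 5 fat markers summed to 4.53 to 12.01 over the controls and to 0.152 and 2.94 in the knockouts, and their part in the isoform values was not tested. The striated muscle markers other than Ckm, which was listed at 0 in knockout 0, summed to 0.239 to 0.254 in the controls and to 0.394 and 0.183 in the knockouts. Cox4i2, the form of lung and of low oxygen, stood at 1.41, 1.34 and 1.29 in the controls and 1.28 and 1.13 in the knockouts. Cox6a2, of heart and muscle, stood at 1.29, 2.16 and 1.77 against 1.27 and 1.45, and its groups overlapped.

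**Figure D2:**
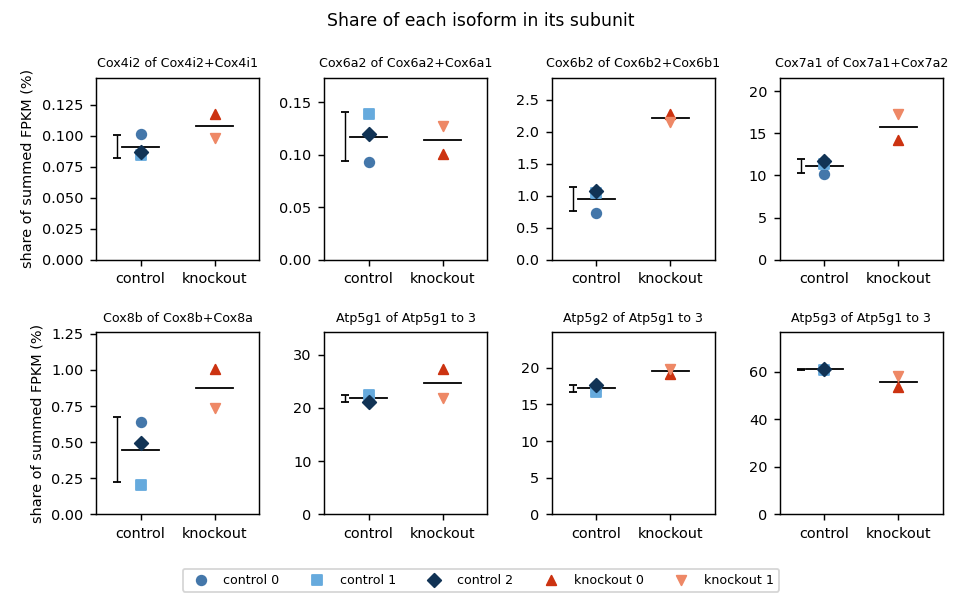
Share of each isoform in the summed FPKM of its subunit, in percent, for the 3 control and 2 knockout libraries; horizontal lines are group means and the error bar is the SD of the controls. Knockout points lie above all control points for Cox6b2, Cox7a1, Cox8b and Atp5g2, and below them for Atp5g3.

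Complex V was lower in the genes that could be compared, which leave out both subunits of the catalytic ring, with 12 of 15 genes tested, 12 differences negative (Atp5g1 and Atp5g2 positive after quantile normalization) and 11 below every control in both knockouts. None of the 12 passed by limma over the table, while 9 had an unadjusted p under 0.05. In the head, Atp5c1, the gamma shaft, had 655, 683 and 688 in the controls and 422 and 535 in the knockouts (log2 difference -0.51, SE 0.124, limma adjusted p = 0.0695). Atp5e, the epsilon subunit of the shaft, had 791, 949 and 902 against 498 and 623 (log2 difference -0.66, SE 0.141, limma adjusted p = 0.0543), the largest difference of the complex. Of the small membrane subunits, Atp5j2 (subunit f) had 836, 899 and 814 against 592 and 636 (log2 difference -0.47, SE 0.0961, limma adjusted p = 0.0502), just over the threshold. Atp5k (subunit e) had 1102, 1192 and 1249 against 688 and 927 (log2 difference -0.56, SE 0.153, limma adjusted p = 0.0857), and Atp5l (subunit g) 972, 1065 and 979 against 914 and 711 (log2 -0.32). Knockout 0 was the lower of the 2 in Atp5c1, Atp5e, Atp5j2 and Atp5k, and knockout 1 in Atp5l.

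The stalk that holds the head still was lower as well. Atp5j, coupling factor 6, had 538, 587 and 507 in the controls and 383 and 409.9 in the knockouts (log2 difference -0.45, SE 0.101, limma adjusted p = 0.0586). Atp5f1 (subunit b) had 433 ± 14.3 (SD, n = 3) against 323 and 371, a log2 difference of -0.32. Atp5h (subunit d) had 841 ± 57.9 against 651 and 682 (log2 -0.33). Atp5o, which ties the stalk to the head, had 628 ± 31.3 against 541 and 524 (log2 -0.24). In each of these 4 genes both knockouts lay below every control.

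The 3 genes for the rotor ring encode the same mature c subunit with different import sequences, and their values differed. Atp5g3, the most abundant of them and of complex V, had 1372, 1524 and 1508 in the controls and 981 and 1121 in the knockouts (log2 difference -0.48, SE 0.112, limma adjusted p = 0.0624). Atp5g1 had 493, 559.5 and 521 against 502 and 421 (log2 difference -0.19, SE 0.116, limma adjusted p = 0.336), with knockout 0 inside the range of the controls, and Atp5g2 389, 418 and 434 against 352 and 382 (log2 difference -0.17, SE 0.094, limma adjusted p = 0.28). The share of Atp5g3 in the sum of the 3 was 61.01% ± 0.196 (SD, n = 3) in the controls and 53.4% and 58.2% in the knockouts (exact permutation p = 0.1, adjusted 0.2). That of Atp5g2 was 17.2% ± 0.454 (SD, n = 3) against 19.2% and 19.9% (exact permutation p = 0.1, adjusted 0.2). That of Atp5g1 was 21.8% ± 0.617 (SD, n = 3) against 27.4% and 21.9% (exact permutation p = 0.2, adjusted 0.267). Reads of near-identical copies could be split between these genes, so their shares are uncertain.

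Another 5 members were listed at exactly 0 somewhere, and these are given by library with no difference drawn. Atp5b and Atp5a1, the catalytic beta and the alpha subunit of the head, were listed at 0 in all 3 controls, with an FPKM of 1597 and 1551 and of 728 and 916 in the knockouts. Atp5d, the delta subunit of the shaft, was listed at 0 in all 5 libraries. These are genes that every respiring cell uses, and Gapdh showed the same picture (0 in each control, 1073 and 854 in the knockouts), so a 0 here may be a failed estimate. Of the 5 F1 genes only Atp5c1 and Atp5e could therefore be compared. Cox8c and Cox7b2, isoforms known from testis, were listed at 0 in all 5 libraries and in 3 of them, with 0.0150 in control 0 and 0.0117 in knockout 1 for Cox7b2. With such rows kept in the fit, Atp5a1 and Atp5b counted as higher, against controls listed at 0.

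The mobile carrier and the remaining matched genes were lower too, Cox7a2l only without quantile normalization. Cycs, somatic cytochrome c, which carries electrons from complex III to IV and triggers apoptosis when it leaves the mitochondrion, had 251, 230.1 and 232 in the controls and 198 and 144 in the knockouts (log2 difference -0.49, SE 0.149, limma adjusted p = 0.104). Unlike in most members, the lower library was knockout 1. Cox7a2l, which links complexes III and IV into supercomplexes, had 152, 152 and 149 against 134 and 133 (log2 difference -0.18, SE 0.0703, limma adjusted p = 0.168). Its control values were nearly equal and both knockouts lay below them. Atp5sl, today called Dmac2 and known as an assembly factor of complex I rather than a part of complex V, fell from 48.3, 47.2 and 47.2 to 33.7 and 37.02 (log2 difference -0.42, SE 0.0741, limma adjusted p = 0.0375), and was called in 9 of the 15 alternative settings. Atp5s, its relative, had 14.02, 13.8 and 11.5 against 11.2 and 9.57 (log2 -0.31, adjusted p = 0.148).

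The complexes were set side by side by their medians and sums. The median log2 difference over tested subunits was -0.39 in complex II, -0.41 in complex III, -0.35 in complex IV and -0.39 in complex V, and -0.38 over the common subunits of complex IV. After quantile normalization the medians of complexes II to V were -0.13, -0.17, -0.11 and -0.15. They were not tested against each other. The summed FPKM of the tested subunits was 1536 ± 11.1 (SD, n = 3) for complex II in the controls, 5739.8 ± 261 for complex III, 10775 ± 688 for complex IV and 9445 ± 427 for complex V. In knockout 0 and 1 the sum came to 69.2% and 82.8% of the control mean for complex II, 73.4% and 76.4% for complex III, 74.8% and 78.8% for complex IV and 72.5% and 77.7% for complex V. Knockout 0 was the lower library in every complex, and the order of the complexes was not the same in both. Of the 46 tested members 30 were lower in knockout 0 than in knockout 1, all 4 subunits of complex II among them. Together the tested members made up 5.27% to 5.83% of all FPKM over the controls, and 4.18% and 4.72% in the knockouts. The totals behind these shares were 504914 to 507053 over the controls and 493226 and 462814 in the knockouts. They are not alike in content, since abundant rows such as Gapdh were listed at 0 in every control only.

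**Figure D3:**
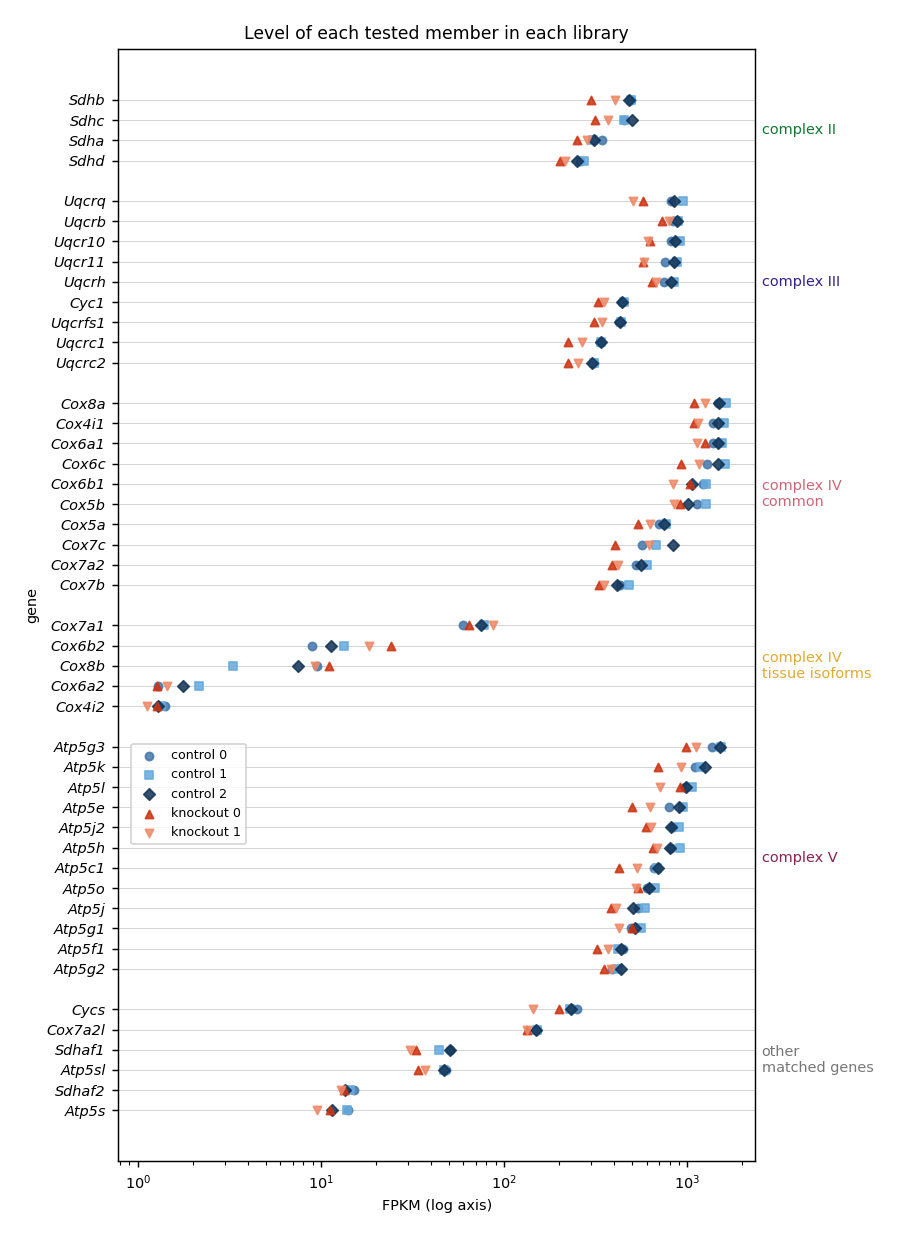
FPKM on a log axis of each of the 46 tested members in the 3 control and 2 knockout libraries, 1 symbol per library, ordered within each group of genes by control mean. In most genes the knockout symbols lie left of all control symbols, and the tissue isoforms of complex IV stand far below the common subunits.

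Genes abundant in the controls were lower as a class in the knockout libraries, and most members are among them. The level was read from the controls alone, so rows high only in the knockouts could not enter. The choice by itself therefore favours negative differences, by an amount that was not tested. Of the rows that are no members, 438 had a control mean FPKM of at least 200, with a median log2 difference of -0.28, and 84.2% of them were negative. Both knockouts lay below every control in 57.5% of them. The 36 members at that level had a median of -0.40, all were negative, and 34 lay below every control. By limma's adjusted p the order was the other way, with 73 of the 438 other abundant rows called lower (16.7%) and 3 of the 36 members (8.33%). These differences between members and other abundant rows were not tested. After quantile normalization, which gives each library the same distribution of values, the median over the members was -0.15, 38 of 46 differences were negative, and Sdhaf1 was the 1 member called. Atp5g1, Atp5g2, Cox6a1, Cox7a2l and Uqcrb then had small positive differences. Rescaled to TPM, that is to a common sum per library, the median was -0.29, and 2 members were called lower and 1, Cox6b2, higher. Over all rows the split was 479 lower and 336 higher as deposited, and 279 lower and 457 higher after rescaling.

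**Figure D4:**
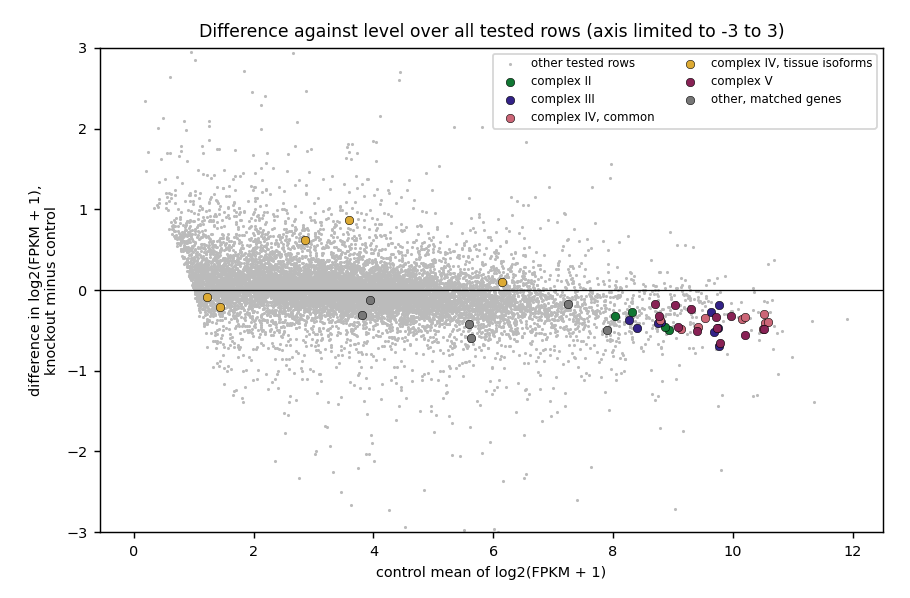
Difference in log2(FPKM + 1), knockout minus control, against the control mean on the same scale for all 12553 tested rows, with the members coloured by complex and the vertical axis limited to -3 to 3. Members crowd at the high end of the level axis, where the grey points also lie mostly below 0. The control mean enters both axes, which by itself favours negative differences at the high end.

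Genes that build these complexes were also lower for the most part. Of 34 tested assembly factors of complexes III to V 2 fell, 0 rose and 32 did not pass, with a median log2 difference of -0.20 and 22 below every control in both knockouts. Of all rows 3.82% were called lower and 26.4% lay below every control. Coa6, which helps to deliver copper to complex IV, fell from 68.8 ± 1.71 (SD, n = 3) to 45.9 and 48.6 (limma adjusted p = 0.0251). Cox20, a chaperone of a mitochondrially encoded complex IV subunit, fell from 166 ± 3.74 to 107 and 117 (limma adjusted p = 0.0265). Cox14 and Cox18, which act on newly made subunits of complex IV, had 116 ± 8.11 and 10.1 ± 0.147 in the controls, 88.2 and 87.99 in the knockouts for Cox14 and 8.31 and 7.41 for Cox18. No row bore the symbols searched for the 6 mitochondrially encoded subunits of complexes III to V, so they were not analysed here.

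Among 11 tested regulators of respiratory genes 1 rose and 0 fell. In both knockouts 5 lay below every control and 3 above, where 26.4% and 21.8% of all rows did. Gabpb1, the partner subunit of the ETS factor GABP, rose from 7.82, 8.02 and 7.07 in the controls to 13.996 and 10.998 in the knockouts (log2 difference 0.64, SE 0.117, limma adjusted p = 0.0411). Esrra, a nuclear receptor that drives mitochondrial genes, had 73.3, 74.3 and 79.2 against 53.9 and 61.1 (log2 -0.39, limma adjusted p = 0.0593), with both knockouts below every control. Mterf1a had 1.76, 2.19 and 2.05 against 1.32 and 1.55 (limma adjusted p = 0.149). Tfb2m, a mitochondrial transcription factor, had 29.9, 28.3 and 26.5 against 24.9 and 24.5 and did not pass (limma adjusted p = 0.183). Nrf1, given here because its core was searched above, had 6.16, 5.96 and 6.29 against 6.62 and 6.67. Its log2 difference was 0.0988 (limma adjusted p = 0.381).

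Other mitochondrial genes had negative medians as well. Of 44 tested complex I genes (symbols beginning with Nduf) 7 fell and 0 rose, with a median of -0.36, and of 18 genes of the TCA cycle and pyruvate dehydrogenase 2 fell and 0 rose, with a median of -0.37. These 2 were Pdha1, a subunit of pyruvate dehydrogenase, from 252 ± 16.04 (SD, n = 3) to 158 and 169, and Idh2, from 318 ± 8.28 to 192 and 235. Of 20 genes of mitochondrial import and the outer membrane 3 fell and 0 rose, with a median of -0.32: Phb, Timm8b and the channel Vdac1, the last from 515 ± 24.8 to 367 and 388. The mitochondrial ribosome (symbols beginning with Mrpl or Mrps) had 6 of 77 lower, 0 higher, and a median of -0.26. Of all rows 3.82% were called lower. No difference between these groups and complexes II to V was tested.

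Markers of mitochondria-rich tubule cells are given beside these values. The proximal tubule markers Lrp2 and Slc34a1 were listed at 0 in all 5 libraries. Of 7 proximal tubule markers tested 0 passed, 2 lay below and 2 above every control in both knockouts, with a median log2 difference of -0.12. The 7 summed to 1280.3 to 1624 over the controls and to 1105 and 1019.7 in the knockouts. Without Slc7a13, singled out after its values were seen, the other 6 summed to 974 to 994 over the controls and to 930.1 and 1018 in the knockouts, 1 below and 1 above the controls. Slc22a8, an organic anion transporter, had 174, 203 and 189 against 253 and 337, and Slc7a13, an amino acid transporter, 631, 306 and 524 against 175 and 1.83. Of the 6 thick ascending limb and distal tubule markers, 1 had a library at 0 and was left out of their sum. The other 5 summed to 394 to 504 over the controls and to 259 and 553 in the knockouts, and thus overlapped. The 5 markers of intercalated cells of the collecting duct had a median of -0.62, 4 of them below every control, and 0 passed. Their sum was 122 to 154 over the controls, against 68.2 and 103 in the knockouts. Over all rows 26.4% lay below and 21.8% above every control. The part of cell composition in the lower respiratory transcripts was not tested.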

How the data were processed

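Total RNA of whole kidneys, extracted with TRIzol, gave 5 mRNA-seq libraries, 3 of uninduced controls and 2 of Pkd1 knockouts by the genotype label. The deposited values are FPKM computed by the authors, 1 column per library, and every column had a sample. The build mm10 and bcl2fastq are named in the submitters' processing notes, and the aligner, counter, annotation and strandedness stay unnamed in the sources used here. Depth is not stated and was not recovered from the FPKM, so no count test was run.

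The table has 23997 rows. A mean FPKM of 1 or more was reached by 12640 rows, of which 87 had a library at exactly 0 and were left out, which left 12553. Differences were fitted on log2(FPKM + 1), which understates changes of low genes, with limma 3.58.1 (lmFit, eBayes with a variance trend, two-sided) in R 4.3.3, at a Benjamini-Hochberg adjusted p of 0.05. Tables and plots used Python 3.11.15, pandas 2.3.3, numpy 2.4.6 and matplotlib 3.10.9. The script was tested on simulated data. Medians over members carry no test.

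The members and gene lists were chosen with earlier results of these data known. Genes were named by rule (members with a 0, past the threshold, with the largest differences, highest or lowest in a complex, isoform pairs, members against their complex, and list members by adjusted p), and nearly all other members were named after their values were seen. Positions are from GENCODE M21 (mm10) and promoters from RefSeq (GRCm38.p6). The promoter motifs were chosen after the FPKM were seen. The values of 1 gene in the marker lists are not reported here.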

Additional observations from a re-analysis of the deposited data

How the results depend on the processing

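The count of 5 members called lower became 2 with no filter on mean FPKM, 12 at a mean of at least 5, 2 rescaled to TPM, 3 with median-of-ratios scaling, 1 after quantile normalization and 10 with no variance trend, and it ran from 0 to 24 with 1 library left out. The count of 0 called higher became 2 with rows at 0 kept, 1 at a mean of at least 5 and 1 rescaled to TPM, and ran from 0 to 1 with 1 library left out. The 8 calls in the pathway lists became 5 with no filter and 0 after quantile normalization, and ran from 0 to 28 with 1 library left out. Calls over the whole table moved as well. The 479 of 12553 rows called lower became 318 of 17468 with no filter and 538 of 9112 at a mean of at least 5. They became 279 rescaled to TPM, 368 with median-of-ratios scaling, 274 after quantile normalization and 461 with no variance trend. The 336 called higher became 345 with rows at 0 kept, 275 at a mean of at least 5 and 457 rescaled to TPM. The complex medians stayed negative in all 15 alternatives. Rows at 0 kept gave -0.33 in complex V, TPM -0.30 in complex II and -0.31 in complex V, and quantile normalization -0.13, -0.17, -0.11 and -0.15 in complexes II to V. With 1 library left out they ran from -0.47 to -0.27, -0.46 to -0.33, -0.36 to -0.29 and -0.46 to -0.34. After quantile normalization the log2 differences of Atp5g1, Atp5g2, Cox6a1, Cox7a2l and Uqcrb turned to 0.0496, 0.0931, 0.0552, 0.042 and 0.0339, and that of Cox7a1 was -0.0214 without control 0 and -0.12 without knockout 1, the lowest of a range up to 0.31 with 1 library left out. With 1 library left out the share differences ran from 0.00662 to 0.0262 percentage points for Cox4i2, 3.14 to 6.16 for Cox7a1, 0.102 to 5.58 for Atp5g1 and -7.56 to -2.76 for Atp5g3. The cause of these shifts was not tested, beyond the fewer rows or libraries that some settings use.

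The replicate numbers 0 and 1 occur in both groups, and nothing in the labels says that they pair samples. Across tested rows the difference between control 0 and 1 correlated at 0.0748 with that between knockout 0 and 1. With the replicate block limma called 0 members and 0 of the pathway list genes, as it called 0 of all rows (1934 at an unadjusted p under 0.05), while 43 of 46 members had a negative difference. With 2 knockout libraries and no stated depth, small differences between members cannot be resolved.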
